A study of Mus musculus with 10 samples.

Results

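The genes described here are 9 mouse genes of inflammatory and regulated cell death, namely Nlrp3, Pycard, Casp1, Casp4, Gsdmd, Il18, Casp8, Ripk3 and Mlkl, taken by symbol from the 55401 genes of an RNA sequencing table. All 9 symbols were present once. RNA from the cerebral cortex of 10 mice had been sequenced, 5 with traumatic brain injury (TBI) and 5 without. The uninjured mice are named Sham in the titles and naive in the series design, so whether they had surgery is not settled. Per the series design each group was 5 mice, with 1 library a mouse. The injury model, time after injury, strain, age and genotype are not given in the sources used here.

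Inflammasomes are cytosolic protein assemblies in which a sensor such as NLRP3 recruits the adaptor ASC, the product of Pycard, and thereby activates caspase-1. Caspase-1 matures interleukin-18 and cleaves gasdermin D, whose amino-terminal part forms membrane pores in the lytic death called pyroptosis. Caspase-4, known in the mouse as caspase-11, also cleaves gasdermin D and responds to bacterial lipopolysaccharide inside cells. Caspase-8 starts apoptosis downstream of death receptors and restrains necroptosis, in which the kinase RIPK3 phosphorylates the membrane-disrupting pseudokinase MLKL. In the brain, microglia and infiltrating myeloid cells are a known source of many of these proteins. Activation of these proteins by cleavage or phosphorylation is not measured by RNA levels.

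Total estimated counts ranged from 47.6 M to 70.5 M in TBI libraries and from 59.4 M to 71.3 M in Sham libraries (M, megacounts). About 4 counts were taken to stand for 1 sequenced fragment, an assumption that rests on the excess of multiples of 4 among low counts. Levels are FPKM, that is, fragments scaled for transcript length and library size, so they can be set beside each other between genes. All 8 cortical markers examined, among them Tbr1 and Cux2, passed the expression filter, and none of them was called. In whole tissue, more cells of a type and more RNA per cell cannot be told apart. The expression filter asked for 0.5 FPKM or more in 5 or more libraries and left 16316 genes to test. The filter was passed by 5 of the 9 genes, Pycard, Casp1, Gsdmd, Il18 and Casp8. The other 4, Nlrp3, Casp4, Ripk3 and Mlkl, lay below it in both groups and take their fold changes from a fit of all 32852 genes with any count.

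Injured cortex had higher levels of the inflammasome adaptor gene Pycard, of the pore-forming gasdermin gene Gsdmd and of the apoptotic initiator gene Casp8. Pycard was 2.64-fold, Casp8 2.02-fold and Gsdmd 1.79-fold higher in TBI than in Sham (edgeR quasi-likelihood test, Benjamini-Hochberg adjusted p = 0.0024, 0.0035 and 0.0085). Casp1, which encodes the inflammasome protease, and Il18, which encodes its cytokine substrate, were not called, with folds of 0.994 and 0.981. Thus 3 of the 5 genes that passed the filter were called higher and 0 lower, where 3.57% of all tested genes were called higher and 0.472% lower. Of the 4 genes below the filter 0 were called in the unfiltered fit, where 1.74% of genes were called higher and 0.131% lower. The FPKM of the groups did not overlap for 4 of the 9 genes, Pycard, Gsdmd, Casp8 and Casp4, always with TBI above Sham. Among all tested genes 5.60% had TBI wholly above Sham and 0.729% wholly below. In the unfiltered set these shares were 3.46% and 0.463%. The median log2 fold change of all tested genes was -0.01, which the normalization brings near 0 by design.

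**Figure D1:**
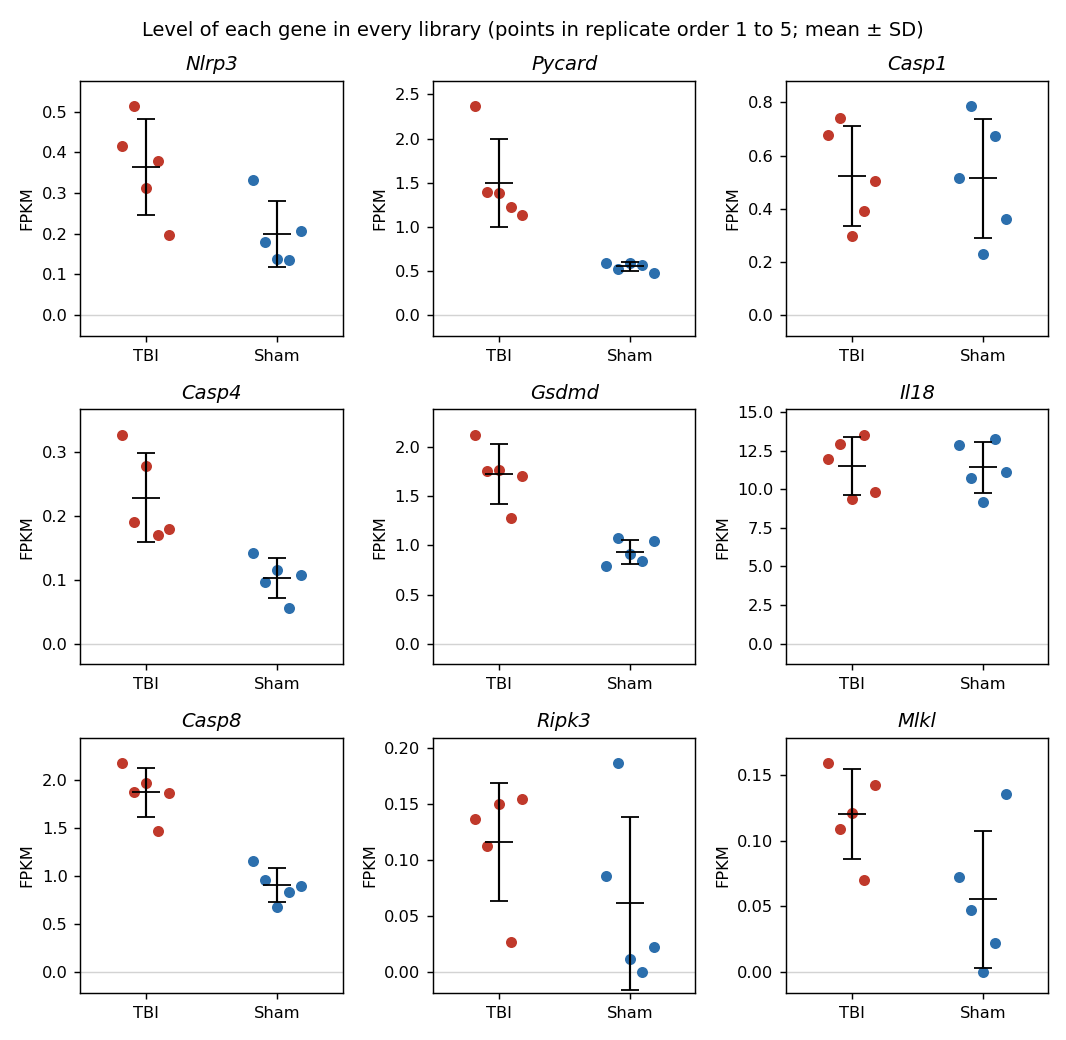
Level of each of the 9 genes in FPKM (vertical axes, each with its own scale) in the 5 TBI and 5 Sham libraries; points are libraries and bars are mean ± SD. TBI points lie wholly above Sham points for Pycard, Casp4, Gsdmd and Casp8, while those of Casp1 and Il18 are intermixed.

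Nlrp3 (ENSMUSG00000032691, mm10 chromosome 11, 59541568 to 59566956), the sensor, was a gene of low level in this tissue. It had 0.417, 0.514, 0.312, 0.379 and 0.197 FPKM in TBI replicates 1 to 5, against 0.333, 0.179, 0.137, 0.136 and 0.207 FPKM in Sham replicates 1 to 5. TBI replicate 5 fell among the Sham values and Sham replicate 1 among the TBI values, so the groups overlapped. The fitted log2 fold change was 0.83 (95% interval 0.16 to 1.51) and did not pass (edgeR without a filter, adjusted p = 0.332).

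Pycard (ENSMUSG00000030793, mm10 chromosome 7, 127989708 to 127993867, minus strand), which encodes the adaptor ASC, had 2.37, 1.40, 1.38, 1.22 and 1.13 FPKM in TBI replicates 1 to 5. In Sham replicates 1 to 5 it had 0.594, 0.527, 0.595, 0.565 and 0.478 FPKM. Every TBI library lay above every Sham library, and TBI replicate 1 stood well above the other TBI animals. The mean was 1.5 ± 0.498 FPKM in TBI and 0.552 ± 0.0495 FPKM in Sham (SD, n = 5 each), a log2 fold change of 1.40 (95% interval 0.96 to 1.84). Without TBI replicate 1 the log2 fold change was 1.18 and the gene was still called (adjusted p = 9.3e-04). Its exons share 485 of 3800 annotated bases with the opposite-strand transcript Gm45205, which had 16 counts over the TBI libraries and 48 over the Sham libraries. Whether the counting used strand is not given in the sources used here.

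Casp1 and Casp4 encode the inflammatory caspases and are neighbours on chromosome 9, 1537 bases apart and on the same strand. Casp1 (ENSMUSG00000025888, 5298508 to 5307290) had 0.676, 0.742, 0.299, 0.393 and 0.505 FPKM in TBI replicates 1 to 5, against 0.517, 0.786, 0.231, 0.673 and 0.363 FPKM in Sham replicates 1 to 5. The values were spread widely inside both groups, and the highest and the lowest libraries of all 10 were both Sham. The means were 0.523 ± 0.186 FPKM in TBI and 0.514 ± 0.225 FPKM in Sham. The 95% interval of the fold reached from 0.592 to 1.67 (adjusted p = 0.995), so changes inside that range were not excluded.

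Casp4 (ENSMUSG00000033538, 5308828 to 5336783) had 0.327, 0.189, 0.277, 0.169 and 0.179 FPKM in TBI replicates 1 to 5, against 0.142, 0.0957, 0.115, 0.0563 and 0.107 FPKM in Sham replicates 1 to 5. All TBI libraries lay above all Sham libraries, at levels that rest on 293 counts in TBI and 143 in Sham. The fitted fold was 2.13 (95% interval 1.33 to 3.41), and it did not pass in edgeR without a filter (adjusted p = 0.148). DESeq2 on the same unfiltered counts called it (adjusted p = 0.031). Casp12, the next gene of the cluster, averaged 0.380 ± 0.123 FPKM in TBI and 0.244 ± 0.0177 FPKM in Sham and did not pass (edgeR without a filter, adjusted p = 0.420).

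Gsdmd (ENSMUSG00000022575, chromosome 15, 75862327 to 75867408) encodes gasdermin D, the pore former cut by both caspases. It had 2.13, 1.76, 1.77, 1.28 and 1.71 FPKM in TBI replicates 1 to 5, against 0.791, 1.07, 0.915, 0.843 and 1.05 FPKM in Sham replicates 1 to 5. The groups did not overlap, and TBI replicate 4 was the nearest to Sham. Means were 1.73 ± 0.303 FPKM in TBI and 0.933 ± 0.123 FPKM in Sham (log2 fold change 0.84, 95% interval 0.51 to 1.17).

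Il18 (ENSMUSG00000039217, chromosome 9, 50554827 to 50581840) was the most abundant of the 9 genes by a wide margin. It had 11.95, 12.98, 9.38, 13.6 and 9.81 FPKM in TBI replicates 1 to 5, against 12.9, 10.8, 9.19, 13.3 and 11.1 FPKM in Sham replicates 1 to 5. The groups lay over each other, and the means were 11.5 ± 1.87 FPKM in TBI and 11.4 ± 1.66 FPKM in Sham. The 95% interval of the fold was 0.805 to 1.196 (adjusted p = 0.958), narrower than that of Casp1. Its locus contains parts of Bco2 and Tex12 on the other strand, with 0 annotated exon bases shared.

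Casp8 (ENSMUSG00000026029, chromosome 1, 58795374 to 58847503) had 2.17, 1.87, 1.96, 1.47 and 1.86 FPKM in TBI replicates 1 to 5. In Sham replicates 1 to 5 it had 1.16, 0.959, 0.674, 0.834 and 0.890 FPKM. Again no TBI library was as low as any Sham library, and TBI replicate 4 was the lowest of the injured animals. Means were 1.87 ± 0.256 FPKM in TBI and 0.903 ± 0.177 FPKM in Sham (log2 fold change 1.01, 95% interval 0.67 to 1.35).

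Ripk3 and Mlkl, the kinase and the executor of necroptosis, were the least abundant of the 9 genes. Ripk3 lies on the minus strand of chromosome 14 (55784995 to 55788865) and Mlkl on that of chromosome 8 (111311797 to 111338177). Ripk3 had 0.137, 0.113, 0.150, 0.0267 and 0.155 FPKM in TBI replicates 1 to 5, against 0.0859, 0.187, 0.0117, 0 and 0.0226 FPKM in Sham replicates 1 to 5. The highest value of all belonged to Sham replicate 2, so the groups overlapped. Mlkl had 0.159, 0.109, 0.121, 0.0701 and 0.142 FPKM in TBI replicates 1 to 5, against 0.0724, 0.0468, 0, 0.0219 and 0.135 FPKM in Sham replicates 1 to 5. Only Sham replicate 5 reached the upper TBI values, and Sham replicate 1 lay just above TBI replicate 4. These levels rest on 100 counts in TBI and 52 in Sham for Ripk3, and on 98 counts in TBI and 50 in Sham for Mlkl. If 4 counts stand for 1 fragment, as assumed, a count of 0 in a library allows up to 12 counts, or 3 fragments, from counting error alone.

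Neither necroptosis gene passed (edgeR without a filter, adjusted p = 0.712 for Ripk3 and 0.559 for Mlkl). The 95% intervals of the fold were 0.479 to 7.53 for Ripk3 and 0.658 to 6.57 for Mlkl, and both include no change and the 2.02-fold of Casp8.

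**Figure D2:**
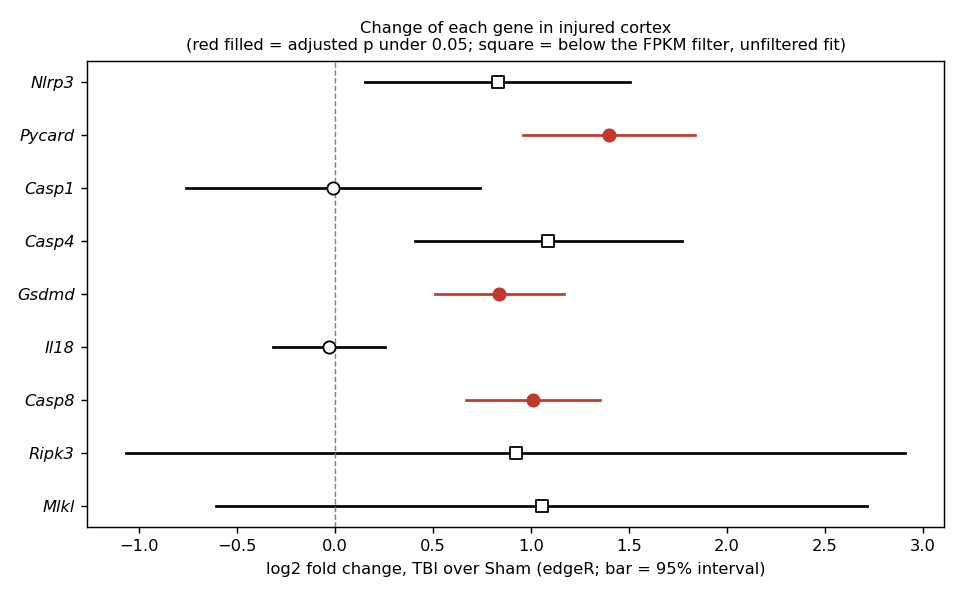
Log2 fold change of each gene, TBI over Sham, with its 95% interval from edgeR (horizontal axis); red filled symbols passed an adjusted p of 0.05 and squares are genes below the expression filter, fitted without it. Pycard, Gsdmd and Casp8 are called at 1.40, 0.84 and 1.01, and the intervals of Ripk3 and Mlkl are the widest.

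The order of the mean levels began with Il18 in both groups. In TBI it ran Il18, Casp8, Gsdmd, Pycard, Casp1, Nlrp3, Casp4, Mlkl and Ripk3, and in Sham Il18, Gsdmd, Casp8, Pycard, Casp1, Nlrp3, Casp4, Ripk3 and Mlkl. Il18 was 6.18 times the mean level of the next gene in TBI and 12.3 times in Sham. Among neighbours in the order, the library ranges were apart in TBI between Il18 and Casp8, between Pycard and Casp1, and between Casp4 and Mlkl. In Sham they were apart between Il18 and Gsdmd and between Casp8 and Pycard. Pycard and Casp1 had separate ranges in TBI, with means of 1.5 and 0.523 FPKM, and overlapping ranges in Sham, with means of 0.552 and 0.514 FPKM.

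The animals of the TBI group differed among themselves in the same direction for several of the genes. TBI replicate 1 had the highest TBI value of 5 genes, Pycard, Casp4, Gsdmd, Casp8 and Mlkl. TBI replicate 4 had the lowest TBI value of 5 genes, Casp4, Gsdmd, Casp8, Ripk3 and Mlkl. The summed FPKM of 10 microglia markers ranged from 246 to 434 in TBI, against 121 to 133 in Sham. It was also highest in TBI replicate 1 and lowest in TBI replicate 4. Of these markers 8 rose, 0 fell and 2, P2ry12 and Siglech, were not called, and none was at 0. The summed level of 8 monocyte and macrophage markers was 30.1 to 107 in TBI and 6.87 to 8.40 in Sham. Only 4 of these markers passed the filter and 1 rose, the lysozyme gene Lyz2, which alone averaged 67.3 ± 31.7 FPKM in TBI and 5.02 ± 0.621 FPKM in Sham. The other 7 markers summed to 3.45 to 5.65 FPKM in TBI and 2.27 to 3.36 FPKM in Sham. The sum of all 8 was likewise highest in TBI replicate 1 and lowest in TBI replicate 4. Without Lyz2 it was highest in replicate 2 and lowest in replicate 3. TBI replicate 4 also had the lowest TBI sums of astrocyte, neutrophil and endothelial markers, and replicate 2 those of lymphocyte, neuron and oligodendrocyte markers. The lowest place of replicate 4 was thus not particular to microglia markers. Without Gfap the astrocyte sum was lowest in replicate 1, and without S100a9 the neutrophil sum was lowest in replicate 2. The highest TBI sums were in replicate 2 for astrocyte, replicate 3 for neutrophil and replicate 5 for endothelial markers. Replicate 1 highest together with replicate 4 lowest was seen only for microglia markers and for monocyte and macrophage markers with Lyz2.

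Astrocyte markers summed to 557 to 699 FPKM in TBI and 319 to 372 FPKM in Sham, with 2 of 8 higher and 0 lower. Gfap, a filament gene of reactive astrocytes, averaged 259.7 ± 67.4 FPKM in TBI and 38.3 ± 6.0 FPKM in Sham, and the other 7 summed to 361 to 406 FPKM in TBI and 292 to 331 FPKM in Sham. Of 8 neutrophil markers 0 passed the filter, Ly6g and Cxcr2 were at 0 counts in all libraries, and the sums were 0.159 to 0.828 FPKM in TBI and 0 to 0.970 FPKM in Sham. Of 8 lymphocyte markers 0 passed the filter, with sums of 0.504 to 1.15 FPKM in TBI and 0.290 to 0.709 FPKM in Sham. Neuron, oligodendrocyte and endothelial sums overlapped between the groups, with 0, 0 and 1 of 8 markers called. The part of these cell type differences in the levels of the 9 genes was not tested.

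**Figure D3:**
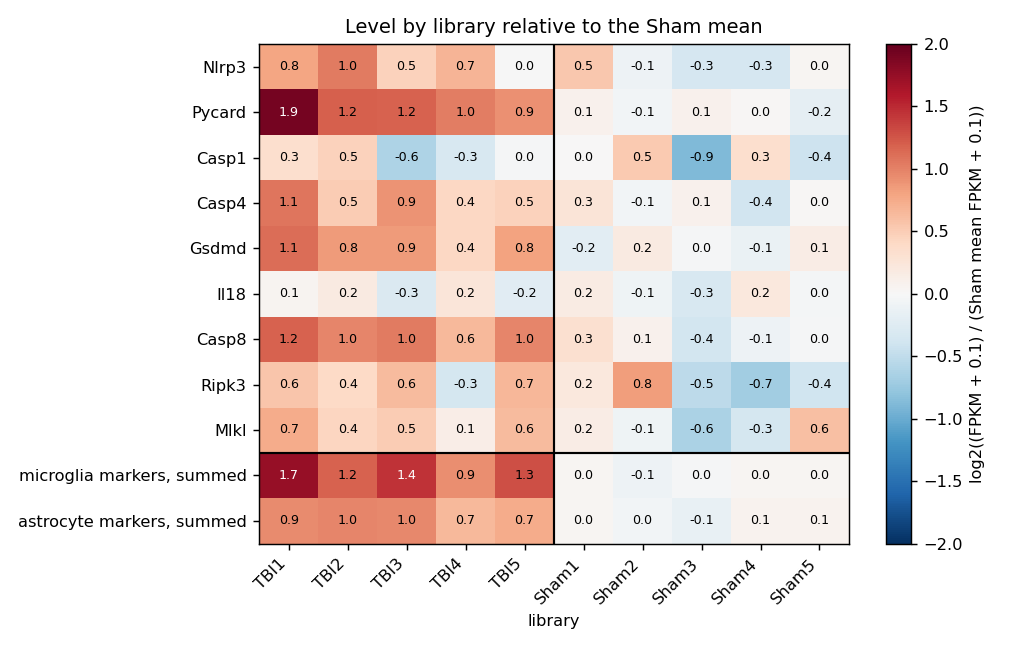
Log2 level of each gene in each library over the Sham mean, after adding 0.1 FPKM (colour and printed value), with TBI libraries left of Sham libraries; the bottom rows give summed microglia and astrocyte markers the same way. Pycard, Gsdmd and Casp8 are above the Sham mean in all 5 TBI libraries, and Casp1 and Il18 vary in both groups.

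Upstream sequence was examined for the genes with an entry in the RefSeq promoter table (GRCm38.p6), which were 8 of the 9, all but Gsdmd. The sequences shown are the 250 bases before the annotated start, 5′ to 3′ on the gene's strand, for both called genes with an entry and for the adjacent Casp4 and Casp1, whose library values were apart and intermixed between the groups. Capitals mark matches to any of the 5 motifs searched on both strands. The Casp8 entry starts at another annotated transcript than the first base of the gene in the deposited table. The Casp4 and Casp1 windows run slightly past the first base of each gene in that table.
Pycard (chr7:127993868-127994117, minus strand): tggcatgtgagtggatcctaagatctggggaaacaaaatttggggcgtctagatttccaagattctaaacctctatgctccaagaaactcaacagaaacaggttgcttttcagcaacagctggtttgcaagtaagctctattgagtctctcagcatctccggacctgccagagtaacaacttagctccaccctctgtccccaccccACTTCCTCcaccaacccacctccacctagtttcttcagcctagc
Casp8 (chr1:58802252-58802501, plus strand): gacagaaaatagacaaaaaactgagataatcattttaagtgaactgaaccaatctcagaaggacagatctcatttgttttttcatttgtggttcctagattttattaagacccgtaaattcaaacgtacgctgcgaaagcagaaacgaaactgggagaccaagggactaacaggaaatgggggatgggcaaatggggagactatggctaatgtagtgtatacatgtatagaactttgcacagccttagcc
Casp4 (chr9:5308599-5308848, plus strand): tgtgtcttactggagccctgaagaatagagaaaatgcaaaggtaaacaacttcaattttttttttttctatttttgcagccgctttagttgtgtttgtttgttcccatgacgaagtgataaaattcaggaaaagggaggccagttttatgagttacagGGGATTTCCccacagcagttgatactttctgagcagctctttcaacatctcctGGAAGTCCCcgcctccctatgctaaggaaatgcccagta
Casp1 (chr9:5298267-5298516, plus strand): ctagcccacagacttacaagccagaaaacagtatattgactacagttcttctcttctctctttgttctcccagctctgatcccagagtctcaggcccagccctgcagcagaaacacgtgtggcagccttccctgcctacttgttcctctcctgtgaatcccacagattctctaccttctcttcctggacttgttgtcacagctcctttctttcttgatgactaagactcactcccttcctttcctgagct

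The motifs were GAAA then NN then GAAA for the interferon-stimulated response element, TTCNNNGAA for the gamma-activated site, GGGNNTTCC for NF-kB, GAGGAAGT for the myeloid factor PU.1 and TGANTCA for AP-1. Pycard held the PU.1 letters on the opposite strand, as ACTTCCTC starting at position -44 from the annotated start, a string present in 2.44% of 32851 promoter windows of the same length. Casp4 held the NF-kB letters in both orientations, GGGATTTCC at -92 and GGAAGTCCC at -39 from the start shown. Its other annotated start puts the same strings at -103 and -50. A window with at least 1 match to this motif, in either orientation, made up 4.98% of windows, and the share with a match in both was not counted. Nlrp3, with a pair of annotated starts, had 1 NF-kB match in each window. The windows of Casp8, Casp1, Il18, Ripk3 and Mlkl held none of the 5 motifs. The other motifs occurred in 2.98% (interferon-stimulated response element), 7.02% (gamma-activated site) and 6.75% (AP-1) of windows. The motifs were chosen after the sequences were seen, and a match of letters is not a measured site.

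To ask whether partners in a pathway changed by different amounts, 6 ratios within each library were compared between the groups. The log2 ratio of Nlrp3 to its adaptor Pycard averaged -1.78 ± 0.402 in TBI and -1.16 ± 0.373 in Sham (SD, n = 5 each), a difference of -0.62 (95% interval -1.23 to -0.01). Gsdmd over Casp1 averaged 1.59 ± 0.395 in TBI and 0.83 ± 0.594 in Sham, a difference of 0.76 (95% interval -0.10 to 1.51). Casp8 over Ripk3 differed by 0.48 (95% interval -0.02 to 1.11) and Casp4 over Casp1 by 0.63 (95% interval -0.31 to 1.44). These were the 4 ratios with the smallest p.

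Il18 over Casp1 differed by -0.04 (95% interval -0.71 to 0.57) and Ripk3 over Mlkl by -0.06 (95% interval -0.81 to 0.72). The added 0.1 FPKM exceeds the Sham means of Ripk3 and Mlkl (0.0614 and 0.0553 FPKM). It thus pulls their ratio and its interval towards 0. In exact two-sided permutation tests the p values were 0.0476 for Nlrp3 over Pycard, 0.0714 for Gsdmd over Casp1 and for Casp8 over Ripk3, 0.167 for Casp4 over Casp1, 0.849 for Ripk3 over Mlkl and 0.873 for Il18 over Casp1. None of the 6 passed after Benjamini-Hochberg adjustment (smallest adjusted p = 0.143), where the smallest p that 5 against 5 can give is 0.0079. A different change of partners was therefore not shown for any of the pairs. A pseudocount of 1 FPKM in place of 0.1 pulls the ratio within a library towards 0. It does not always shrink the difference between the groups, because it flattens the lower gene more. With it, Nlrp3 over Pycard, Gsdmd over Casp1 and Casp8 over Ripk3 passed the exact test (adjusted p = 0.0159 each). The changes of log2(FPKM + 1) were 0.67 for Pycard and 0.18 for Nlrp3, 0.49 for Gsdmd and 0.013 for Casp1. They were 0.59 for Casp8 and 0.074 for Ripk3. On this scale, which flattens changes of genes well below 1 FPKM, each difference was mostly the change of Pycard, Gsdmd or Casp8. In the edgeR fits the log2 fold changes were 1.01 for Casp8 and 0.92 for Ripk3 (without a filter). They were 1.40 for Pycard and 0.83 for Nlrp3 (without a filter), and 0.84 for Gsdmd and -0.0086 for Casp1. The difference of Casp8 over Ripk3 was -0.36 with 0.01 FPKM, 0.48 with 0.1 FPKM and 0.52 with 1 FPKM. Its sign and its pass in the test thus depended on the pseudocount.

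**Figure D4:**
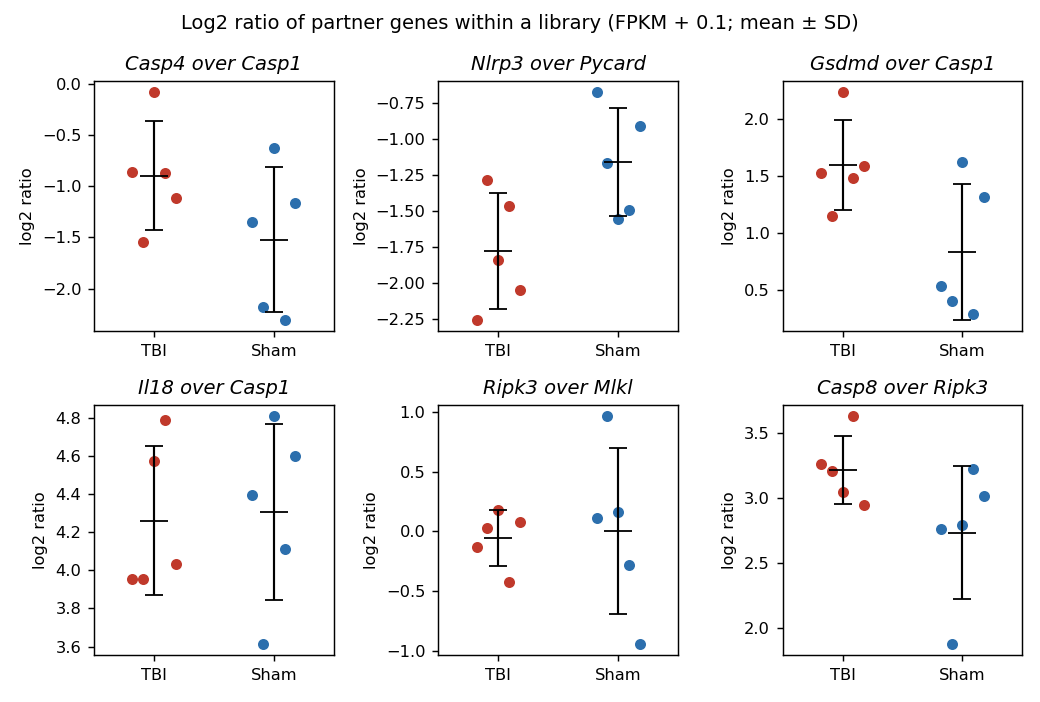
Log2 ratio of partner genes within each library after adding 0.1 FPKM (vertical axes), for 5 TBI and 5 Sham libraries with mean ± SD. In all 6 panels TBI and Sham points overlap.

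The pathways around these genes were described with 7 lists holding 83 further genes, of which 53 passed the filter. Without the filter, 80 of the 83 had a count, and 11 of these were called higher and 0 lower, where 1.87% of the 32852 genes were called in either direction. With the filter 10 of the 53 were called higher and 1 lower, beside 4.04% of all tested genes. These 10 include Naip5, Il1a and Tlr2, which met the filter through TBI libraries alone. The lists were chosen with earlier results of these data known, so both counts are descriptions only. The median log2 fold change of the 53 was 0.23, beside -0.01 over all tested genes. Among 15 inflammasome sensors and adaptors, 5 passed the filter. Pycard and Naip5 were higher, and Aim2, Txnip and Nek7 were not called (list median log2 0.76). Naip5, a receptor for bacterial flagellin, averaged 0.735 ± 0.169 FPKM in TBI and 0.249 ± 0.0749 FPKM in Sham (log2 1.51, edgeR adjusted p = 0.0038). It met the filter through TBI libraries alone, and reads of the closely related Naip genes may be split between copies. Naip2, another gene of that family and below the filter, averaged 0.611 ± 0.108 FPKM in TBI and 0.160 ± 0.0664 FPKM in Sham and was called without it (3.69-fold, edgeR adjusted p = 0.0045), with the same limit. The DNA sensor Aim2 averaged 1.22 ± 0.237 FPKM in TBI and 0.829 ± 0.167 FPKM in Sham (adjusted p = 0.198).

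Of 11 inflammatory caspase and pore former genes, 4 passed the filter, Gsdmd was higher and Casp1, Gsdme and Ninj1 were not called (median log2 0.21). Ninj1, which ruptures the plasma membrane of dying cells, averaged 6.53 ± 1.57 FPKM in TBI and 4.79 ± 1.25 FPKM in Sham (adjusted p = 0.383). Gsdme, another pore-forming gasdermin, averaged 1.67 ± 0.0484 FPKM in TBI and 1.61 ± 0.122 FPKM in Sham (adjusted p = 0.966).

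Of 17 interleukin-1 family genes 9 passed the filter, 2 were higher and 7 were not called (median log2 0.23). Il1a, an alarmin cytokine, averaged 1.001 ± 0.269 FPKM in TBI and 0.334 ± 0.0525 FPKM in Sham (log2 1.53, adjusted p = 0.0025) and met the filter through TBI libraries alone. Its receptor Il1r1 averaged 1.40 ± 0.196 FPKM in TBI and 0.786 ± 0.0991 FPKM in Sham (log2 0.79, adjusted p = 0.0059). Il1b, the other inflammasome cytokine, lay below the filter at 0.201 ± 0.0927 FPKM in TBI and 0.120 ± 0.0604 FPKM in Sham (edgeR without a filter, adjusted p = 0.541). The interleukin-18 antagonist gene Il18bp averaged 2.50 ± 0.416 FPKM in TBI and 2.08 ± 0.378 FPKM in Sham (adjusted p = 0.534).

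Of 15 necroptosis genes 11 passed the filter and 3 were higher, 0 lower and 8 not called (median log2 0.03). Tnfrsf1a, the main receptor of tumour necrosis factor, averaged 6.08 ± 0.907 FPKM in TBI and 3.17 ± 0.166 FPKM in Sham (log2 0.90, adjusted p = 0.0011). The kinase gene Ripk1, upstream of Ripk3, averaged 1.05 ± 0.137 FPKM in TBI and 0.695 ± 0.0901 FPKM in Sham (log2 0.56, adjusted p = 0.025). Ticam1, an adaptor of Toll-like receptors, averaged 2.69 ± 0.440 FPKM in TBI and 1.81 ± 0.202 FPKM in Sham (log2 0.53, adjusted p = 0.0498), and was not called without the filter (adjusted p = 0.083). The nucleic acid sensor Zbp1, which also engages RIPK3, lay below the filter at 0.501 ± 0.297 FPKM in TBI and 0.0596 ± 0.0496 FPKM in Sham (edgeR without a filter, adjusted p = 0.060).

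Of 9 death receptor pathway genes 5 passed the filter, and Casp8 was the only one called among them (median log2 0.31). Its adaptor Fadd averaged 0.745 ± 0.0710 FPKM in TBI and 0.588 ± 0.105 FPKM in Sham (adjusted p = 0.357), and its substrate Bid 2.78 ± 0.285 FPKM in TBI and 2.36 ± 0.116 FPKM in Sham (adjusted p = 0.307). All 13 genes of the apoptosome and the executioner caspases passed the filter, and 0 were higher, 1 lower and 12 not called (median log2 0.03). The gene that fell, Cycs, encodes cytochrome c and averaged 21.1 ± 0.351 FPKM in TBI and 23.6 ± 1.26 FPKM in Sham (log2 -0.20, adjusted p = 0.045), and was not called without the filter (adjusted p = 0.106).

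Of 12 regulators of NF-kB and interferon signalling 11 passed the filter and 4 were higher, 0 lower and 7 not called (median log2 0.44). Tlr2, a receptor for bacterial lipoproteins that met the filter through TBI libraries alone, averaged 1.76 ± 0.832 FPKM in TBI and 0.257 ± 0.0986 FPKM in Sham (log2 2.72, adjusted p = 0.0014). Tlr4, the lipopolysaccharide receptor, lay below the filter at 0.367 ± 0.0804 FPKM in TBI and 0.176 ± 0.0297 FPKM in Sham and was called without it (2.02-fold, edgeR adjusted p = 0.024). Irf8, a transcription factor of the myeloid lineage, averaged 2.04 ± 0.507 FPKM in TBI and 0.585 ± 0.0628 FPKM in Sham (log2 1.75, adjusted p = 3.7e-04). Irf9, a factor of interferon signalling, averaged 2.91 ± 0.434 FPKM in TBI and 1.78 ± 0.208 FPKM in Sham (log2 0.67, adjusted p = 0.0080). Nfkb1 and Rela, subunits of NF-kB, were not called (adjusted p = 0.285 and 0.671).

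**Figure D5:**
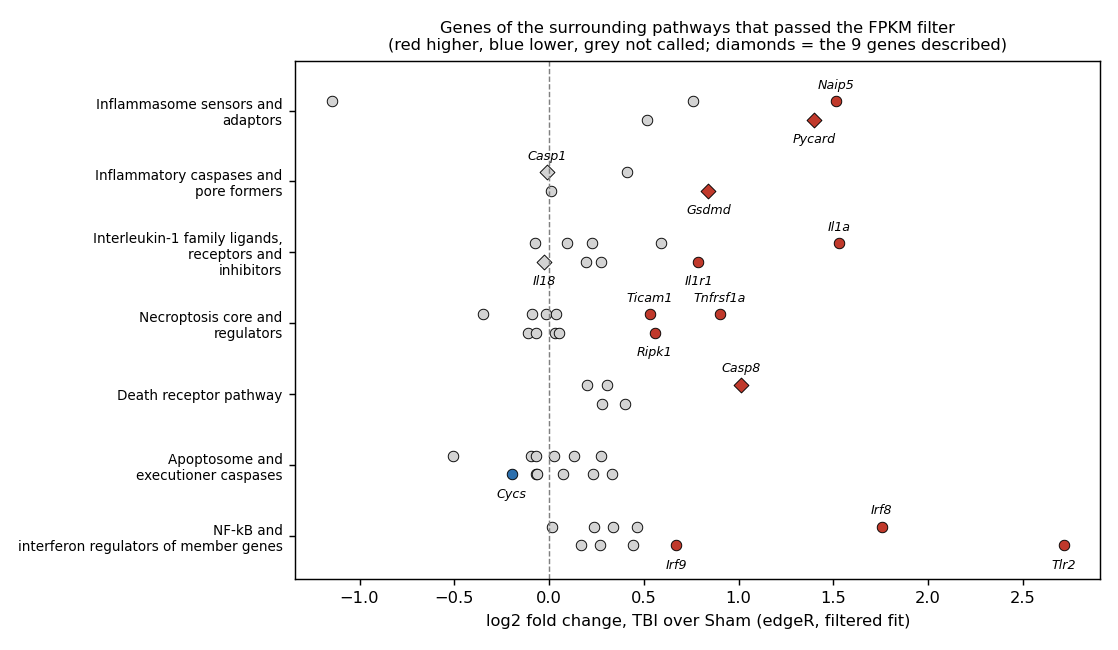
Log2 fold change, TBI over Sham, of most pathway genes that passed the filter (horizontal axis), by list; red symbols were called higher, blue lower and grey not called, and diamonds are genes among the 9. Called genes are present in 6 lists on the higher side and in the apoptosome list on the lower side, where Cycs lies at -0.20.

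The genes whose levels ran most like each of the 9 were sought over the 10 libraries by Pearson's r of log2(FPKM + 1) among tested genes. These r are descriptions over libraries that share the group difference. Pycard ran most like Ccl5, Nfatc1 and Lgals3bp (r = 0.983 each). Casp4 ran most like the interferon-induced genes Slfn2 (r = 0.977), Ifit3b and Ifit1 (r = 0.967 each). Gsdmd ran most like the receptor tyrosine kinase gene Axl (r = 0.988), Tor4a (0.986) and Arhgap45 (0.985), and Casp8 most like Pbxip1 (r = 0.984), Tifab (0.981) and Prkcd (0.980). All 12 of these genes were called higher in TBI.

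For the other 5 genes, the nearest genes were not called. Casp1 ran most like Adamts10 (r = 0.958), Malsu1 (0.943) and Dnajb5 (0.940), and Il18 most like Ubxn6 (r = 0.920), Ndufaf7 (0.908) and Hypk (0.906). Nlrp3 was nearest to Stk3 (r = 0.940), Fgl2 (0.930) and Kdsr (0.923). Among the genes nearest to Mlkl were Cyb561d2 (r = 0.978) and Acad8 (0.922), and Ripk3 was nearest to Epb41l5 (r = 0.911), Celsr1 (0.906) and Sstr4 (0.900).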

How the data were processed

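The deposited table held, per the file headers, a count and an FPKM for each gene and library. The tools named are StringTie, HISAT2 and cutadapt 1.9, and the build is mm10, per the submitters' processing notes; the counting tool and annotation release are not given in the sources used here. The deposited values named counts are treated as estimated counts: they are whole numbers, and multiples of 4 made up 42.6% of the values between 1 and 12, against 25% for evenly spread values. The deposited FPKM were scaled by the authors for transcript length and library size, and the fill value of 0.0001 that goes with a count of 0 was read as 0. Of the gene IDs 99.5% were in GENCODE M21, and 94.2% had the same position there. No sample column was left unused (0).

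Groups and replicate numbers came from the sample titles. Counts were fitted with edgeR 4.0.16 (TMM normalization and the two-sided quasi-likelihood F test with group as the only term) under R 4.3.3, with adjustment over all tested genes and a threshold of 0.05; 95% intervals use the SE implied by F and cover the spread between animals. Ratios were compared with exact permutation tests, whose intervals come from inverting the test. The edgeR step was tested on simulated data. Alternatives were other filters (none, 2 FPKM), DESeq2 1.42.0 and its size factors, limma 3.58.1 on log2(FPKM + 1) and log2(FPKM + 0.1), counts divided by 4, a replicate block and leaving out each library.

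Named were the 9 genes, the called genes of each pathway list (up to the 5 largest changes, or the 2 smallest p where none was called besides the 9) and the 3 genes nearest in pattern to each; Aim2, Naip2, Tlr4, Lyz2, Gfap, Txnip, Nek7, Il1b, Il18bp, Zbp1, Casp12, Nfkb1 and Rela were added after their values were seen. List counts include a few genes that are not reported here and not plotted. The genes and lists were chosen with earlier results of these data known.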

Additional observations from a re-analysis of the deposited data

Results flagged for a closer look

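Among 60 groups of 5 libraries checked over the 9 genes, 15 pathway genes and 6 ratios, 2 had a library far from the other 4; chance alone flags about 1 group in 20. Pycard was at 2.37 FPKM in TBI replicate 1, where the other TBI libraries had 1.13 to 1.40 FPKM. The Toll-like receptor gene Tlr2 was at 0.429 FPKM in Sham replicate 5, against 0.180 to 0.233 FPKM in the other Sham libraries.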

How the results depend on the processing

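The calls of Pycard and Casp8 held under all alternatives that tested them, and that of Gsdmd under all but the replicate block (log2 0.83, adjusted p = 0.0514). Same-numbered libraries correlated at -0.109 to 0.133 in their deviations from the group means, and 2 of the 5 TBI libraries were nearest to their own number, so the numbers were not taken to pair animals. The count of 3 genes called higher was 3 without any single library, and 0 with a filter of 2 FPKM, which leaves only Il18 to test. Over all genes, 582 higher and 77 lower genes became 337 and 48 with that filter, and 373 and 29 with the replicate block. Lower genes numbered 43 without a filter, 229 in DESeq2, and 42 and 39 in limma with pseudocounts of 1 and 0.1; without single libraries higher genes ranged from 441 to 659 and lower from 37 to 84, with 47 or fewer lower genes without TBI replicate 1, 2, 3 or 5 or Sham replicate 1, 2 or 3. Near-zero changes turned sign without being called: Casp1 was at 0.0356 with the replicate block and 0.0129 and 0.0527 in limma (pseudocounts 1 and 0.1), and ranged from -0.18 to 0.19 without single libraries; Il18 was at 0.00771 and 0.00809 in these limma fits and ranged from -0.0859 to 0.0365. Without single libraries Il18 over Casp1 ranged from -0.22 to 0.0811 and Ripk3 over Mlkl from -0.29 to 0.18. With a pseudocount of 1 FPKM the differences that passed were -0.48 for Nlrp3 over Pycard, 0.48 for Gsdmd over Casp1 and 0.52 for Casp8 over Ripk3, and with 0.01 that of Casp8 over Ripk3 was -0.36. The ratio differences at 1 FPKM follow from the changes of each gene on the log2(FPKM + 1) scale. The cause of the other shifts was not tested. Ripk3 ranged from 0.61 to 1.902 (log2) without single libraries, the highest without Sham replicate 2, and Mlkl from 0.74 to 1.68, the highest without Sham replicate 5. Over all 10 libraries Ripk3 and Mlkl rest on the fewest counts of the 9 genes and have the widest intervals.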

Other observations

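Nek7, which encodes a kinase that binds NLRP3, had 1.22 to 1.42 FPKM in the TBI libraries, while Sham replicates 1 and 2 had 5.36 and 5.49 FPKM and the other Sham libraries 0.952 to 1.198 FPKM. It was not called (edgeR log2 fold change -1.15, adjusted p = 0.315).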
